A study of Mus musculus with 6 samples.

Results

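The data described here are the transcript levels of 10 genes of the microtubule system in infarcted mouse heart: the alpha tubulins Tuba1a, Tuba1b, Tuba4a and Tuba8, the beta tubulins Tubb2a, Tubb5 and Tubb6, and the microtubule binders Mapt, Map4 and Mid1. They are 10 of the 35498 genes to which the deposited transcripts could be assigned, and all 10 were among the 14237 genes that passed the filter on low counts. Tuba8, Mapt and Mid1 were chosen by their measured log2 fold changes between the groups, so their differences are given as a description with no test. The other 7 were taken as further isotypes and binders of the same system.

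Infarction was made by tying off the left anterior descending (LAD) coronary artery, and 7 days later poly-A RNA was sequenced from the ventricle below the tie. The mice were 8 to 10 weeks old and of the strain C57BL/6J. The Runx1_FB_KO group (n = 3) had the genotype Postn CreER+/-; Runx1 fl, and the CTL group (n = 3) had Postn CreER+/-; Runx1 WT. Tamoxifen was fed to both groups from the operation on, so the control mice also carried the recombinase and received its inducer. CreER is a tamoxifen-activated recombinase, here under the promoter of periostin (Postn), a gene of activated fibroblasts, so removal of Runx1 depends on where that promoter is active. Runx1_FB_KO replicate 1 was male and replicates 2 and 3 were female, whereas CTL replicate 1 was female and replicates 2 and 3 were male. The labels do not say which part of Runx1 is removed or whether each sample was a separate mouse, so p-values measure the spread between these samples.

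Microtubules are hollow polymers of alpha and beta tubulin dimers. Each subunit is encoded by several genes, called isotypes, whose products differ mainly in their C-terminal tails, where enzymes remove or add residues. Binding proteins such as tau (Mapt) and MAP4 lie along the polymer and stabilise it. In heart muscle cells, microtubules that lack the terminal tyrosine of alpha tubulin are tied to the sarcomere and resist its shortening, and in dividing cells microtubules form the spindle.

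The libraries held 16598561 to 19987279 estimated reads. Levels of a gene between libraries are given as CPM, the count relative to the library's scaled total, with scaling by TMM, a method that corrects for differences in library composition, and levels between genes as TPM, which is per length. Runx1, which encodes the targeted transcription factor, was at 17.5, 10.9 and 67.4 CPM in Runx1_FB_KO replicates 1, 2 and 3, against 96.4, 86.9 and 85.5 CPM in CTL replicates 1, 2 and 3 (log2 fold change -1.48, SE 0.63, edgeR adjusted p = 0.154). Runx1_FB_KO replicate 3 was therefore the knockout library closest to CTL. Summed over 12 cardiomyocyte markers the levels were 92820, 117000 and 31160 CPM in Runx1_FB_KO, against 13990, 15690 and 12310 CPM in CTL, and all 12 markers were higher in every knockout library than in any CTL library. Summed over 12 activated fibroblast markers they were 11330, 9965 and 36010 CPM in Runx1_FB_KO, against 41810, 44090 and 41510 CPM in CTL. Mitochondrially encoded genes took 10.4% to 24.5% of the reads in Runx1_FB_KO and 5.36% to 7.11% in CTL. In bulk tissue, fewer cells of a type and less RNA per cell cannot be told apart.

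Because the isotypes are the products of separate genes, the sequences before their start sites are shown first. RefSeq windows (GRCm38.p6, 250 bases before to 50 bases after the start site, in the direction of the gene) were used for 8 of the 10 genes, 11 windows in all. Searched on both strands were TGTGGT (a spelling of the RUNX motif), CATTCC (the MCAT motif of TEAD factors) and CCAAT (the motif of NF-Y). Only these exact letters were searched, and they do not overlap in the matches found. The 5 windows below are those of the alpha tubulins that were highest and lowest in Runx1_FB_KO relative to CTL, of Tubb5, and of Mid1 (the first of its 3 windows). Capitals mark the motif matches.
Tuba8, chr6:121210484-121210783, plus strand: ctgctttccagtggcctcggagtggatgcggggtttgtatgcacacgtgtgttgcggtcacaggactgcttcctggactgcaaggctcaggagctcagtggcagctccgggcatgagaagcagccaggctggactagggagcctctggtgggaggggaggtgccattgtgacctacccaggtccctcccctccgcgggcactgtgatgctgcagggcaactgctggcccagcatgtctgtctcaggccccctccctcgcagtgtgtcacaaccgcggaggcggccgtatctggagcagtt
Tuba4a, chr1:75219245-75219544, minus strand: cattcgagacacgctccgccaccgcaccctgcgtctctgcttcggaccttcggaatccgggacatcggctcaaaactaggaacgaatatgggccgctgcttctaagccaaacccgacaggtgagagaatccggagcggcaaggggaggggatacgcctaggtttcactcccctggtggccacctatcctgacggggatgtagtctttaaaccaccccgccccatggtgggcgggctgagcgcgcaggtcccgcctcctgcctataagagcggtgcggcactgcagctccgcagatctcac
Tuba1a, chr15:98953452-98953751, minus strand: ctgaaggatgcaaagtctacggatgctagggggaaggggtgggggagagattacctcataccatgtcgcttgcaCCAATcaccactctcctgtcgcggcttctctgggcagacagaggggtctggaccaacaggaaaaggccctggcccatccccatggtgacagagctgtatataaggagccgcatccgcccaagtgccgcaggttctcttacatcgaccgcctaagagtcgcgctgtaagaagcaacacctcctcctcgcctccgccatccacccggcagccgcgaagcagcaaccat
Tubb5, chr17:35838252-35838551, minus strand: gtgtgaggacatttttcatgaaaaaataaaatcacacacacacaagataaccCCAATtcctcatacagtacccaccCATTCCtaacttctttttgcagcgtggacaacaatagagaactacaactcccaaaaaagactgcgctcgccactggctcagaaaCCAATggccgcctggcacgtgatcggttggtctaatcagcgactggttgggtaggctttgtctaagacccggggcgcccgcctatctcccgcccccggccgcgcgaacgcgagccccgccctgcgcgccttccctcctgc
Mid1, chrX:169684949-169685248, plus strand: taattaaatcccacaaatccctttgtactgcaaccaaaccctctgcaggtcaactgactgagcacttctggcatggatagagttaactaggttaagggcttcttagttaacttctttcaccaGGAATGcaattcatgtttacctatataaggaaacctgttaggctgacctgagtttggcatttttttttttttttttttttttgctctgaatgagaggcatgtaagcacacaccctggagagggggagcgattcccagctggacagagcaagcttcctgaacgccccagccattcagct

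None of the 11 windows held TGTGGT, a run of letters found in 16.8% of 32851 RefSeq promoter windows. The Tubb5 window held CCAAT starting 198 and 90 bases before the start site and CATTCC 174 bases before it, and the Tuba1a window held CCAAT 176 bases before it. Mid1 held the reverse complement of CATTCC 128 bases before the start site of its first window. CCAAT was found in 37.4% and CATTCC in 14.7% of all windows. Map4 held CCAAT, as its reverse complement, 79 and 39 bases before the start site of its first window and 243 bases before that of its second, and another Mid1 window held it 62 bases before its start site. The Tuba8, Tuba4a, Tuba1b and Tubb2a windows held none of the 3 runs of letters, which says only that these exact letters are not in these windows. Other spellings of the motifs, such as TGCGGT for RUNX, were not searched. GC content was 63.7% for Tuba8, 62.0% for Tuba4a, 59.0% for Tuba1a, 55.0% for Tubb5 and 43.7% for Mid1.

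The alpha tubulins divided by isotype. Tuba8, an isotype known from heart and skeletal muscle and testis, and Tuba4a, whose gene encodes no terminal tyrosine, were higher in every knockout library than in any CTL library, while the widely used Tuba1a and Tuba1b were lower on average and overlapped between the groups. Of the 7 genes not picked for their change, 2 (Tuba4a and Map4) were above CTL in every knockout library and 0 were below, where 20.2% of all genes tested were above and 18.8% below. The picked genes Tuba8, Mapt (above) and Mid1 (below) also had groups that did not overlap, which their choice favours. No gene of the 14237 passed an edgeR adjusted p of 0.05 with all 6 libraries (0% called in either direction, smallest adjusted p = 0.0682, with 4619 genes at an unadjusted p under 0.05), so none of these differences is called.

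Tuba8 (ENSMUSG00000030137, GRCm38 chromosome 6, 121210696 to 121226854, plus strand) was at 133, 157 and 52.3 CPM in Runx1_FB_KO replicates 1, 2 and 3, against 15.6, 10.4 and 11.6 CPM in CTL replicates 1, 2 and 3. The lowest knockout library lay well above the highest CTL library. Its mean was 114 ± 54.6 CPM in Runx1_FB_KO and 12.5 ± 2.74 CPM in CTL (SD, n = 3 each), a 9.07-fold difference (log2 fold change 3.18, SE 0.43). Tuba8 has 1 annotated transcript, and 1.93% of its 31-base words occur in other annotated genes, so few of its reads could be shared with another isotype. Per length it was the smaller of the isotypes that were higher, at 52.8, 61.8 and 36.1 TPM in Runx1_FB_KO and 12.3, 8.12 and 9.45 TPM in CTL, a 5.05-fold difference. TPM carries no correction for composition, and on it Tuba4a was 3.46-fold higher and Tuba1a and Tubb5 were 3.22-fold and 3.13-fold lower in Runx1_FB_KO.

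Tuba4a (chromosome 1, 75214228 to 75219865, minus strand) was at 504, 729 and 167 CPM in Runx1_FB_KO, against 108, 48.7 and 69.1 CPM in CTL. All 3 knockout libraries were above all 3 CTL libraries, and replicate 3 was the nearest to them. On the log2 scale the difference was 2.63 (SE 0.57, edgeR adjusted p = 0.0682), a 6.21-fold difference. Of the 31-base words of its most read transcript, 29.5% also occur in Stk16, a kinase gene that overlaps it on the other strand (75210838 to 75215606), and the labels do not say whether reads were assigned by strand. Stk16 itself averaged 27.8 ± 2.68 CPM in Runx1_FB_KO and 26.8 ± 3.51 CPM in CTL (log2 fold change 0.05, SE 0.16, edgeR adjusted p = 0.829).

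Tuba1a (chromosome 15, 98949837 to 98953703, minus strand), the main alpha isotype of the developing mouse brain, was at 131, 125 and 328 CPM in Runx1_FB_KO, against 565, 279 and 488 CPM in CTL. Runx1_FB_KO replicates 1 and 2 were below every CTL library, and replicate 3 lay above CTL replicate 2. On the log2 scale the difference was -1.19 (SE 0.46, edgeR adjusted p = 0.136). Tuba1b (chromosome 15, 98931425 to 98934565, minus strand), an isotype of most cell types, was at 224, 260 and 343 CPM in Runx1_FB_KO and 636, 240 and 340 CPM in CTL. The groups overlapped and CTL replicate 1 stood apart (log2 fold change -0.56, SE 0.39, edgeR adjusted p = 0.325), and without that library the log2 fold change was -0.08.

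The coding sequences of Tuba1a, Tuba1b and Tuba1c are nearly alike, so the split of reads among them is uncertain. Other genes hold 78.6% of the 31-base words of Tuba1a and 75.4% of those of Tuba1b, with Tuba1c the leading partner of both. Summed, these 3 genes were at 424, 475 and 783 CPM in Runx1_FB_KO, against 1359, 606 and 938 CPM in CTL. Here too Runx1_FB_KO replicate 3 lay above CTL replicate 2, and the log2 fold change of the sum was -0.79 (SE 0.39, edgeR adjusted p = 0.199).

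**Figure D1:**
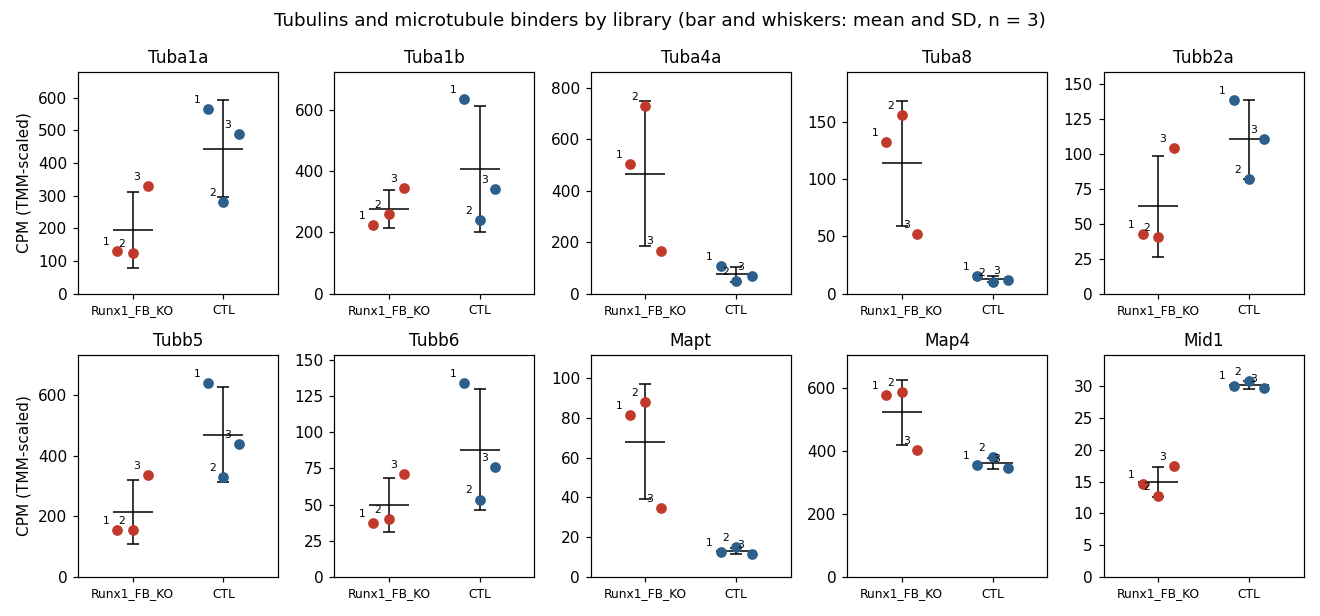
CPM of the 10 genes in each library, with Runx1_FB_KO on the left and CTL on the right of each panel; points are libraries numbered by replicate, and the bar and whiskers give the mean and SD (n = 3). Tuba8, Tuba4a, Mapt and Map4 have all knockout points above all CTL points, Mid1 has them below, and the groups overlap for the other 5; Map4 is below CTL instead in TPM.

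The beta tubulins Tubb2a, Tubb5 and Tubb6 were all lower on average in Runx1_FB_KO, with overlapping groups. Tubb5 (chromosome 17, 35833921 to 35838306, minus strand), the beta isotype of most proliferating cells, was at 155, 153 and 337 CPM in Runx1_FB_KO, against 639, 328 and 439 CPM in CTL. Replicates 1 and 2 of the knockout were below every CTL library, while replicate 3 lay just above CTL replicate 2. On the log2 scale the difference was -1.12 (SE 0.41, edgeR adjusted p = 0.122).

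Tubb2a (chromosome 13, 34074274 to 34078007, minus strand), an isotype rich in nervous tissue, was at 43.0, 40.6 and 104 CPM in Runx1_FB_KO, against 139, 82.0 and 111 CPM in CTL (log2 fold change -0.82, SE 0.40, edgeR adjusted p = 0.198). Other genes hold 56.4% of its 31-base words, mostly the neighbouring copy Tubb2b, and the sum of both had a log2 fold change of -0.93 (SE 0.42, edgeR adjusted p = 0.168). Tubb6 (chromosome 18, 67390717 to 67402749, plus strand), known from regenerating mouse muscle, was at 37.1, 40.1 and 70.9 CPM in Runx1_FB_KO and 134, 53.5 and 76.1 CPM in CTL (log2 fold change -0.83, SE 0.39, edgeR adjusted p = 0.184). For both genes Runx1_FB_KO replicate 3 lay within the CTL range and replicates 1 and 2 below it. Without CTL replicate 1 the Tubb6 log2 fold change was -0.39.

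Shares of the isotypes within a library do not depend on how libraries are scaled against each other. Tuba4a and Tuba8 together held 62.4%, 67.7% and 23.2% of alpha tubulin TPM in Runx1_FB_KO replicates 1, 2 and 3, against 9.48%, 9.17% and 8.71% in CTL replicates 1, 2 and 3. Tuba4a alone held 44.1% ± 21.8 in Runx1_FB_KO and 8.17% ± 0.45 in CTL (SD, n = 3 each). It was the most abundant alpha isotype in Runx1_FB_KO replicates 1 and 2, at 4.62 and 7.10 times the TPM of Tuba1a, and stayed below Tuba1a in replicate 3 (0.601 times) and in CTL (0.233, 0.192 and 0.166 times).

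Among the beta isotypes, Tubb4b, a widely expressed gene chosen here after its values were seen, held 55.7%, 54.1% and 26.5% of the TPM in Runx1_FB_KO and 19.7%, 19.6% and 19.95% in CTL. Tubb5 held 22.3%, 22.5% and 36.1% in Runx1_FB_KO, against 42.2%, 43.0% and 42.3% in CTL. The CTL libraries differed by less than a percentage point in both shares, and the knockout libraries lay beyond them in opposite directions. In CPM the Tubb4b groups overlapped, at 222, 204 and 139 in Runx1_FB_KO and 166, 83.7 and 115 in CTL (log2 fold change 0.63, SE 0.30, edgeR adjusted p = 0.188).

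Summed over isotypes, alpha tubulin was at 591, 771 and 923 TPM in Runx1_FB_KO and 1555, 688 and 1093 TPM in CTL. Beta tubulin was at 241, 228 and 550 TPM in Runx1_FB_KO and 1013, 511 and 718 TPM in CTL. Both sums overlapped between the groups. The ratio of alpha to beta tubulin TPM did not overlap, at 2.45, 3.38 and 1.68 in Runx1_FB_KO against 1.54, 1.35 and 1.52 in CTL, and replicate 3 was the knockout library nearest to CTL.

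**Figure D2:**
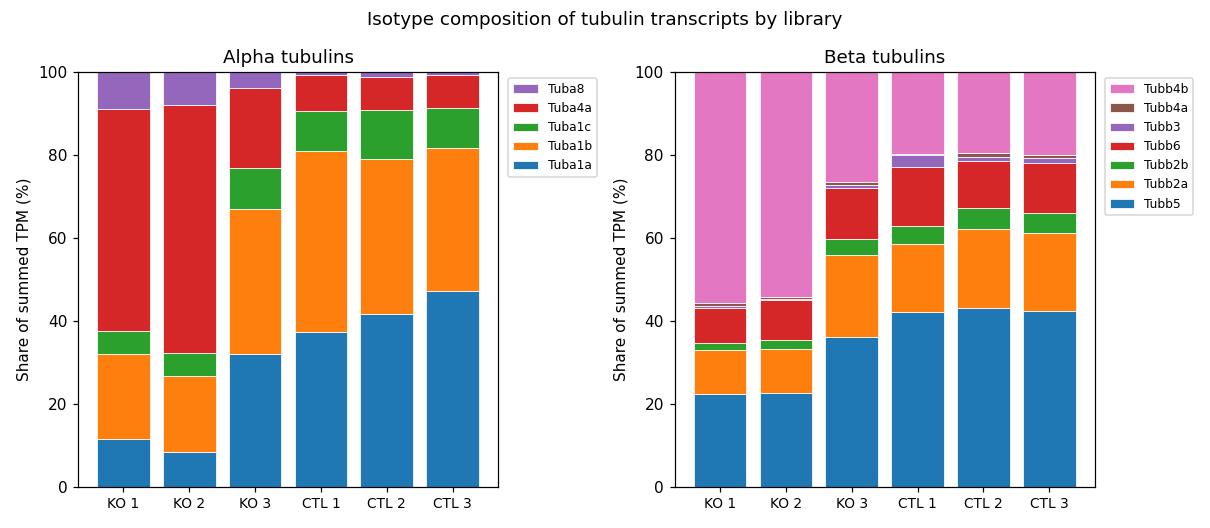
Share of alpha (left) and beta (right) tubulin TPM held by each isotype, stacked to 100%, in Runx1_FB_KO (KO) replicates 1 to 3 and then CTL replicates 1 to 3. Tuba4a reaches 53.4% and 59.7% in KO 1 and KO 2 and 19.3% in KO 3, against 7.84% to 8.69% in CTL, and Tubb4b likewise is highest in KO 1 and KO 2, then KO 3, then CTL.

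Mapt and Map4 encode structural microtubule-associated proteins. Mapt (chromosome 11, 104231390 to 104332090, plus strand) encodes tau, best known from axons, and was at 81.6, 87.9 and 34.7 CPM in Runx1_FB_KO, against 12.3, 14.8 and 11.6 CPM in CTL. Every knockout library was above every CTL library. The mean was 68.1 ± 29.1 CPM in Runx1_FB_KO and 12.9 ± 1.68 CPM in CTL (SD, n = 3 each), a 5.26-fold difference (log2 fold change 2.40, SE 0.36). In TPM, at 19.3, 18.2 and 16.2 in Runx1_FB_KO and 5.40, 8.25 and 5.62 in CTL, the difference was 2.78-fold. None of the 31-base words of its most read transcript occurs in another annotated gene (0%).

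Because tau is a neuronal protein, the neuron and Schwann cell markers are given beside it. Summed over 12 such markers the levels were 29.7, 38.7 and 92.9 CPM in Runx1_FB_KO, against 112, 116 and 102 CPM in CTL. Mbp and Ncam1 made up most of this sum, and both were below CTL in every knockout library. The other 10 markers, summed after the values were seen, were at 10.3, 12.5 and 10.6 CPM in Runx1_FB_KO and 10.54, 14.8 and 8.75 CPM in CTL, and the mean log2 score of all 12 overlapped as well. Snap25, a synaptic gene, had 0 reads in every library, and Elavl4, a neuronal RNA-binding protein gene, had 0.234 CPM in Runx1_FB_KO replicate 2 and 0 in the others. The axonal gene Stmn2 averaged 5.70 ± 1.105 CPM in Runx1_FB_KO and 6.59 ± 2.74 CPM in CTL (log2 fold change -0.21, SE 0.36, edgeR adjusted p = 0.687). Dbh, of noradrenaline synthesis, and Sox10, a Schwann cell factor, were higher on average with overlapping groups (log2 fold changes 1.72, SE 1.08, and 1.32, SE 0.68, edgeR adjusted p = 0.285 and 0.210), at no more than 2.34 and 1.48 CPM in any library. Mapt-204, with 10 exons and the longest of the transcripts that held at least 10% of the gene in any library, held 55.4%, 65.2% and 47.9% of Mapt TPM in Runx1_FB_KO and 57.1%, 42.3% and 54.0% in CTL, and the groups overlapped.

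Map4 (chromosome 9, 109931460 to 110083955, plus strand), the main MAP outside neurons, had the smallest log2 fold change of the 10 genes in size. It was at 578, 589 and 404 CPM in Runx1_FB_KO, against 355, 381 and 347 CPM in CTL, with no overlap (log2 fold change 0.54, SE 0.23, edgeR adjusted p = 0.156). The direction depended on the scale. Scaled by library size alone, with the median over all genes at -0.52, Map4 had a log2 fold change of 0.03, and in TPM, which carries no correction for composition, Map4 was at 126, 127 and 147 in Runx1_FB_KO, all below CTL at 168, 155 and 153.

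Within Map4 the share of the transcript Map4-202 differed between the groups. Map4-202 (9 exons, 4322 bases, starting inside the gene at 110036742) held 19.4%, 16.9% and 5.61% of Map4 TPM in Runx1_FB_KO, against 1.82%, 3.92% and 2.83% in CTL. At the scaling of the gene level it was at 125.5, 113 and 24.6 CPM in Runx1_FB_KO, against 8.00, 15.9 and 10.9 CPM in CTL. All other Map4 transcripts together were at 452.5, 476 and 380 CPM in Runx1_FB_KO, against 347, 365 and 336 CPM in CTL. Both were higher in every knockout library than in any CTL library on this scale, whereas the unscaled reads of the other transcripts overlapped, at 6911, 6102 and 7439 in Runx1_FB_KO and 7797, 8172 and 6764 in CTL. The longer Map4-205 (19 exons, 5573 bases) held 41.1%, 44.5% and 49.3% in Runx1_FB_KO and 41.0%, 54.8% and 50.7% in CTL. Salmon divides reads between transcripts that share exons, so these shares are estimates.

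Mid1 (chromosome X, 169685199 to 170005736, plus strand) encodes a microtubule-bound ubiquitin ligase that targets the catalytic subunit of protein phosphatase PP2A, and its human counterpart is mutated in Opitz syndrome. It was at 14.7, 12.7 and 17.4 CPM in Runx1_FB_KO, against 30.1, 30.8 and 29.7 CPM in CTL. The mean was 14.9 ± 2.35 CPM in Runx1_FB_KO and 30.2 ± 0.59 CPM in CTL (SD, n = 3 each), a level 2.02-fold lower in the knockout (log2 fold change -1.02, SE 0.17), and in TPM it was 3.43-fold lower. The groups were far apart relative to their spread, and Mid1 was the member for which Runx1_FB_KO replicate 3 lay closest to the other knockout libraries, with a departure from the CTL mean of -0.79 on the log2 scale, beside -1.04 and -1.24 in replicates 1 and 2.

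In C57BL/6 mice Mid1 spans the boundary of the pseudoautosomal region, the stretch shared by X and Y, and sex was unbalanced between the groups. Among males Mid1 was at 14.7 CPM in Runx1_FB_KO replicate 1 and at 30.8 and 29.7 CPM in CTL replicates 2 and 3. Among females it was at 12.7 and 17.4 CPM in Runx1_FB_KO replicates 2 and 3 and at 30.1 CPM in CTL replicate 1. The difference had the same direction in both sexes, and with sex as a covariate the log2 fold change was -1.02. The interaction of genotype and sex was -0.05 on the log2 scale for Mid1, and over the 10 genes it ran from -0.23 (Tubb2a) to 1.04 (Tuba4a). A single knockout library was male and a single CTL library female, so this fit cannot show whether the sexes differ.

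Within Mid1 the transcript Mid1-203 separated the groups in CPM, while the sum of the others overlapped in CPM but not in unscaled reads. Mid1-203 (7 exons, 169979451 to 169990798), at the scaling of the gene level, was at 2.96, 3.70 and 6.92 CPM in Runx1_FB_KO, against 19.3, 15.7 and 12.55 CPM in CTL. All other Mid1 transcripts together were at 11.7, 9.02 and 10.49 CPM in Runx1_FB_KO and 10.9, 15.1 and 17.1 CPM in CTL, where Runx1_FB_KO replicate 1 lay above CTL replicate 1. The unscaled reads of these other transcripts did not overlap, at 179, 116 and 205 in Runx1_FB_KO and 245, 339 and 345 in CTL. The share of Mid1-203 was 21.2%, 36.6% and 45.2% in Runx1_FB_KO and 59.9%, 55.5% and 47.0% in CTL, so that Runx1_FB_KO replicate 3 nearly met CTL replicate 3. Of the 31-base words of Mid1-203, 37.3% also occur in Mid1-ps1, annotated on the Y chromosome, to which at most 1.38 CPM were assigned in any library. Mid1-204 went the other way, with 14.2%, 38.7% and 11.9% of Mid1 TPM in Runx1_FB_KO and 7.45%, 9.94% and 9.11% in CTL. For Tuba4a, the retained-intron transcript Tuba4a-205 held 21.6%, 22.5% and 24.7% of the gene in Runx1_FB_KO, against 16.7%, 18.4% and 16.5% in CTL.

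**Figure D3:**
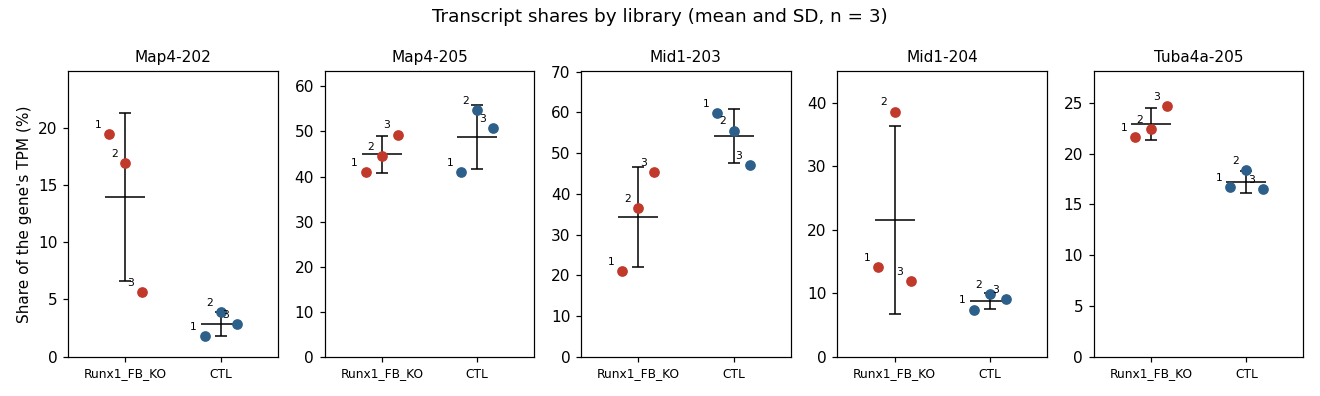
Share of a gene's TPM (percent) held by 5 transcripts of Map4, Mid1 and Tuba4a, with Runx1_FB_KO left of CTL; points are libraries numbered by replicate, with mean and SD (n = 3). Map4-202 is above 5% in each knockout library and below 4% in each CTL library, while Map4-205 overlaps.

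The partners of Mid1 were named for their role and not by a rule on values. Igbp1, the adaptor that links Mid1 to the phosphatase, averaged 47.1 ± 4.88 CPM in Runx1_FB_KO and 44.7 ± 1.34 CPM in CTL (log2 fold change 0.07, SE 0.14, edgeR adjusted p = 0.712). The paralog Mid2 averaged 32.6 ± 0.55 CPM in Runx1_FB_KO and 35.9 ± 6.99 CPM in CTL (log2 fold change -0.14, SE 0.17, edgeR adjusted p = 0.574). The PP2A catalytic subunit genes Ppp2ca and Ppp2cb differed by 0.42 (SE 0.21) and -0.31 (SE 0.13) on the log2 scale, with edgeR adjusted p = 0.198 and 0.150.

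The departures of the genes from the CTL mean are set here beside those of the marker lists, library by library. On the log2 scale Tuba8 departed by 3.41, 3.65 and 2.07 in Runx1_FB_KO replicates 1, 2 and 3, Tuba4a by 2.82, 3.35 and 1.23, and Mapt by 2.66, 2.76 and 1.43. The mean of the 12 cardiomyocyte markers departed by 2.79, 3.11 and 1.27 in the same libraries. Tuba8 exceeded that mean by 0.62, 0.54 and 0.80, whereas Tuba4a lay within 0.25 and Mapt within 0.35 of it. Of the single markers, Myh6 departed by 3.485, 3.887 and 1.544 and Tnni3 by 3.429, 3.897 and 1.454. Both exceeded Tuba8 in replicates 1 and 2 and lay below it in replicate 3. The other markers lay below Tuba8 in every knockout library.

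Tubb5 departed by -1.54, -1.56 and -0.42 and Tuba1a by -1.70, -1.76 and -0.37. The macrophage markers departed by -1.37, -1.45 and -0.18, the activated fibroblast markers by -1.90, -2.07 and -0.20, and the proliferation markers by -2.15, -2.76 and -0.31. Across CTL, replicate 1 was the highest library for Tuba1a, Tuba1b, Tubb2a, Tubb5 and Tubb6, for the proliferation markers (0.92, against -0.67 and -0.25 in CTL replicates 2 and 3) and for the macrophage markers (0.34, against -0.23 and -0.11). For the activated fibroblast markers it was the lowest (-0.11, against 0.098 and 0.012). The departure of Mid1 minus that of the activated fibroblast markers was 0.86, 0.83 and -0.59 in Runx1_FB_KO replicates 1, 2 and 3. The part of these cell populations in the differences was not tested.

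When the cardiomyocyte score was added to the model, the log2 fold changes were 1.07 (SE 0.43) for Tuba8, 0.48 (SE 0.23) for Mapt and -0.55 (SE 0.27) for Mid1, and the other 7 genes turned sign, with edgeR adjusted p between 0.883 and 0.987. The score does not overlap between the groups, so genotype and score cannot be told apart in this fit.

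**Figure D4:**
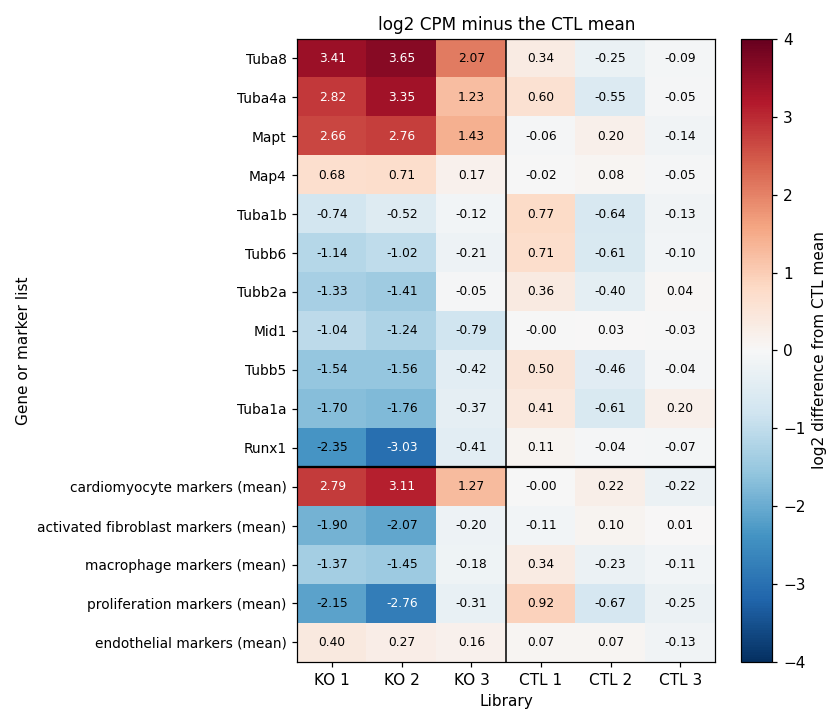
log2 CPM minus the CTL mean for the 10 genes and Runx1 (above the line) and the mean of 5 marker lists (below it), in Runx1_FB_KO (KO) replicates 1 to 3 and CTL replicates 1 to 3; red is higher and blue lower than the CTL mean. Tuba8, Tuba4a, Mapt and the cardiomyocyte markers are highest in KO 2, then KO 1, then KO 3. KO 3 is the palest knockout library in every row, and among the gene rows by the least in Mid1 (-1.04, -1.24 and -0.79).

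Runx1_FB_KO replicate 3 was the knockout library nearest to CTL, so leaving it out narrows the spread of its group and favours low p-values. Leaving out any other single library gave 0 calls in edgeR. Without Runx1_FB_KO replicate 3, edgeR called 25.1% of 14609 genes higher and 22.5% lower. Of the 7 genes that were not picked for their change, 6 then passed the adjusted threshold. Tuba4a (3.08, SE 0.33, adjusted p = 0.000398) and Map4 (0.74, SE 0.13, adjusted p = 0.00375) were higher by edgeR. Tuba1a (-1.75, adjusted p = 0.00288), Tubb2a (-1.36, adjusted p = 0.00249), Tubb5 (-1.56, adjusted p = 0.00346) and Tubb6 (-1.14, adjusted p = 0.0344) were lower by edgeR, and Tuba1b did not pass (-0.70, adjusted p = 0.168). With all 6 libraries DESeq2, which called 10.3% of 20191 genes higher and 3.58% lower, called Tuba4a higher and Tubb5 lower (DESeq2 adjusted p = 2.99e-05 and 0.0382). Map4 and Tuba1a lay at its threshold (DESeq2 adjusted p = 0.04996 each). The values without Runx1_FB_KO replicate 3 were 3.57 for Tuba8, 2.75 for Mapt and -1.098 for Mid1.

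The wider microtubule system was described with 11 lists that hold 187 genes, of which 184 were matched and 170 tested. None passed the adjusted threshold with all 6 libraries in edgeR, 56 had an unadjusted p under 0.05, and DESeq2 called 29 higher and 12 lower. Of the 170 genes 44 (25.9%) were higher in every knockout library than in any CTL library and 22 (12.9%) were lower, where 20.2% and 18.8% of all genes were. The 44 include Tuba8 and Mapt and the 22 include Mid1, which were picked for their change. The median log2 fold change was 0.05, beside -0.06 over all genes tested.

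In the MID and TRIM list, the muscle-specific ligases had the smallest p-values apart from Mid1. Trim55, Trim63 and Trim54 encode the MuRF proteins of striated muscle, which bind microtubules and the sarcomere, and the cardiomyocyte markers given above were higher in the same libraries. Trim63 was at 159, 200 and 68.9 CPM in Runx1_FB_KO, against 40.7, 42.2 and 30.98 CPM in CTL, and the log2 fold changes were 1.65, 1.91 and 1.92 (edgeR adjusted p = 0.0682 each). Of the 11 genes in that list 4 (36.4%) were above CTL in every knockout library and 3 (27.3%) were below, where 20.2% and 18.8% of all genes tested were. The 3 below include Mid1, which was picked for its change. The list median was 0.07.

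End-binding and end-tracking genes had the highest list median, 0.45. Of 16 tested, 10 (62.5%) were above CTL in every knockout library and 1 (6.25%) was below, where 20.2% and 18.8% of all genes tested were. Clasp1, which stabilises growing microtubule ends, was at 390, 383 and 190 CPM in Runx1_FB_KO, against 113, 143 and 120 CPM in CTL (log2 fold change 1.36, SE 0.31, edgeR adjusted p = 0.0682). Clip4 and Slain2, also of the growing end, had log2 fold changes of 1.33 and 1.05 with the same adjusted p, and did not pass.

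Genes of tubulin modification differed in both directions. Agtpbp1, which removes glutamates, was at 166, 170 and 55.0 CPM in Runx1_FB_KO, against 36.4, 46.4 and 32.3 CPM in CTL. Ttll1, a subunit of a complex that adds them, differed by 1.98 (SE 0.49) on the log2 scale and Svbp, the partner of the vasohibins that remove the terminal tyrosine, by -0.70 (SE 0.19). The edgeR adjusted p was 0.0699 for Agtpbp1, 0.0714 for Ttll1 and 0.0788 for Svbp. Of 18 genes of this list tested 3 (16.7%) were above CTL in every knockout library and 6 (33.3%) below, where 20.2% and 18.8% of all genes tested were. The list median was -0.21.

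Among severing and depolymerising genes, Fign, a severing ATPase, was at 17.8, 16.0 and 6.02 CPM in Runx1_FB_KO, against 1.69, 2.63 and 1.79 CPM in CTL (log2 fold change 2.70, SE 0.46, edgeR adjusted p = 0.0682). It was the member of all 11 lists with the highest log2 fold change after Tuba8. Its paralog Fignl2 was lower at -0.76 and the katanin gene Katnal1 higher at 0.57, with edgeR adjusted p = 0.0878 and 0.0960. The list median was -0.36.

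In the list of structural binders and stathmins, Mtus2, Mtus1 and Map7 had the smallest p-values apart from the genes described above, with log2 fold changes of 1.57, 0.92 and 1.52 (edgeR adjusted p = 0.0712, 0.0890 and 0.0902). Of 21 genes tested 5 (23.8%) were above CTL in every knockout library and 1 (4.76%) below, where 20.2% and 18.8% of all genes tested were. The 5 above include Mapt, which was picked for its change. The median was -0.21. Among motors, Dynll2, a dynein light chain, was at 588, 657 and 220 CPM in Runx1_FB_KO, against 124, 141 and 121 CPM in CTL (log2 fold change 1.92, edgeR adjusted p = 0.0682), and the kinesin genes Klc2 and Kif1b had 0.91 and 0.94. Of 28 motor genes 8 (28.6%) were above CTL in every knockout library and 2 (7.14%) below, beside the same shares of all genes.

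Of the tubulins themselves, the 5 alpha tubulins tested had a median log2 fold change of -0.38 and the 7 beta tubulins one of -0.83, the list median largest in size. Nucleation genes had a median of 0.06, with Haus4 at -1.07, Haus8 at 0.67 and Nedd1 at 0.69 (edgeR adjusted p = 0.0709, 0.0871 and 0.0949). Folding factors had a median of 0.08, with the prefoldin genes Pfdn2 and Vbp1 at 0.89 and 0.38 and the cofactor Tbcd at -0.73 (edgeR adjusted p = 0.0682, 0.135 and 0.0878). Kinases that act on MAPs had a median of 0.12, with Dyrk1a, Gsk3a and Cdk5 at 0.62, 0.38 and -0.33 (edgeR adjusted p = 0.118, 0.228 and 0.234). Among the further tubulins Tubb2b, Tubb3 and Tuba1c had -1.31, -2.37 and -0.38 (edgeR adjusted p = 0.112, 0.113 and 0.343), and Tubb3, a neuronal isotype, was at 27.6 CPM in CTL replicate 1 but at 3.88 and 8.55 CPM in the others.

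**Figure D5:**
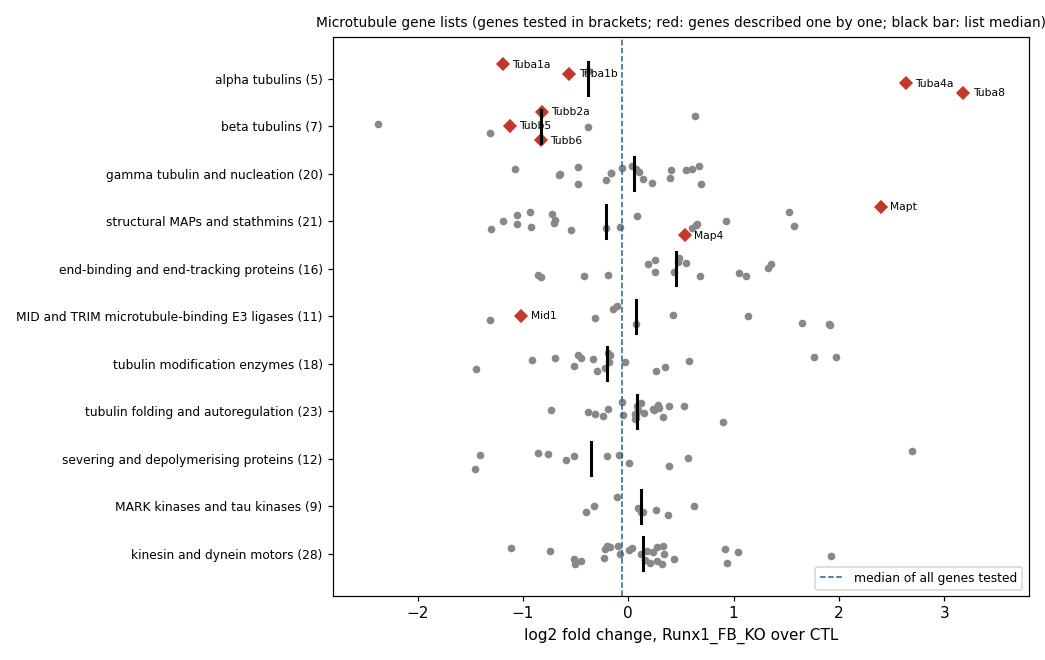
log2 fold change, Runx1_FB_KO over CTL, of every tested gene of 11 microtubule lists; red diamonds are the 10 genes described one by one, grey points the other genes, the black bar is the list median and the dashed line the median of all 14237 genes tested (-0.06). The alpha tubulins spread from -1.19 to 3.18, and 10 of the 11 list medians lie within 0.5 of 0.

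The genes whose log2 CPM was most like that of each picked gene over the 6 libraries were found among 11303 protein-coding genes. For Tuba8 they were Ndufaf3, Ehbp1l1 and Srl (Pearson r = 0.998, 0.997 and 0.996), and 897 genes exceeded 0.95. For Mapt they were Fam160a1, Afg1l and Nme3 (r = 0.9998, 0.999 and 0.998), with 1485 genes above 0.95. For Mid1 they were Sephs1, Fndc10 and Srsf11 (r = 0.996, 0.995 and 0.993), with 192 genes above 0.95. These 6 points share the difference between the groups, so many genes reach such values.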

How the data were processed

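The authors deposited 1 Salmon table per sample, with an estimated count, a TPM value and an effective length (in bases) for each of 116546 transcripts. The submitters' processing notes name Salmon 1.5.2, DESeq2 1.44.0 and the builds mm10 and GRCm38, and strand settings are not given in the sources used here. Transcripts were matched to genes through GENCODE M21 (115977 matched, 569 not used), and the estimated counts deposited were summed per gene and rounded. TPM as deposited was summed per gene for isotype and transcript shares.

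Genes were filtered with filterByExpr, scaled by TMM and fitted with the quasi-likelihood test of edgeR 4.0.16 (R 4.3.3) on all 6 libraries, with Benjamini-Hochberg adjustment over 14237 genes and a threshold of 0.05. DESeq2 1.42.0 and limma 3.58.1 were alternatives. Log2 CPM used a prior count of 2. The code was tested on simulated data. The members and lists were chosen with earlier results of these data known. Named were the members, Runx1, the 3 genes per list with the smallest p among other genes with mean log2 CPM of at least 1, the 3 most alike genes of each picked gene, and transcripts with at least 10% of a gene's TPM, of which a part is printed. Stk16 and the Mid1 partners are named for their position or role, and Tubb4b after its values were seen. Further alternatives were sex, the replicate number or a cardiomyocyte score as a term, other scalings and filters, a length offset, omission of mitochondrial genes and globins, summed paralogs, and each library left out in turn.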

Additional observations from a re-analysis of the deposited data

How the results depend on the processing

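All 6 libraries gave 0 calls in edgeR, so the counts rest on the fit: without the filter 889 genes and 14 listed genes passed, and in DESeq2 2810 and 41. Leaving out 1 library gave 0 to 6947 genes and 0 to 83 listed genes, and the upper values came without Runx1_FB_KO replicate 3. Leaving out 1 library gave log2 fold changes of 2.88 to 3.57 for Tuba8, 2.17 to 2.75 for Mapt, -1.098 to -0.91 for Mid1, 2.16 to 3.08 for Tuba4a and 0.45 to 0.74 for Map4. The ranges were -1.75 to -0.95 for Tuba1a, -0.83 to -0.08 for Tuba1b, -1.36 to -0.58 for Tubb2a, -1.56 to -0.83 for Tubb5 and -1.14 to -0.39 for Tubb6. Tuba4a passed without the filter (2.63) and in DESeq2 (2.67), where Tuba1a (-1.16), Tubb5 (-1.097) and Map4 (0.57) passed too. Scaled by library size alone, which put the median of all genes at -0.52, Mapt was at 1.84 and Mid1 at -1.45.

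With the cardiomyocyte score as a covariate Tuba8, Mapt and Mid1 were at 1.07, 0.48 and -0.55. The sign turned for Tuba1a (0.68), Tuba1b (0.15), Tuba4a (-0.11), Tubb2a (0.92), Tubb5 (0.37), Tubb6 (0.36) and Map4 (-0.22), and the cause was not tested. The other alternatives kept the direction and each tested gene's side of the threshold, and isotype shares computed from estimated reads in place of TPM moved by less than the spread between replicates.

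No pairing of the samples by replicate number was evident, though these values cannot exclude it. Deviations of same-numbered samples correlated at -0.05, 0.11 and 0.08, and not every sample correlated best with its own number. With the replicate number as a block edgeR again made 0 calls, and the log2 fold changes were 3.06 for Tuba8, 2.45 for Tuba4a, 2.30 for Mapt, 0.52 for Map4, -1.03 for Mid1, -1.27 for Tuba1a, -0.45 for Tuba1b, -0.93 for Tubb2a, -1.17 for Tubb5 and -0.78 for Tubb6.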
